A study of Mus musculus with 6 samples.

Results

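A set of 75 long intergenic RNA genes was examined. They were selected on biotype and on measured counts, as the genes whose biotype in the deposited table is exactly lincRNA and whose counts sum to at least 1000 over the 6 libraries. These are 75 of 5559 lincRNA genes in a table of 55098 genes, and 2421 of the lincRNA genes had a count. The summed count runs over both genotypes, so the levels below describe what the choice used and are given without a test, while the difference between genotypes was not used. The libraries are RNA-seq of whole cerebellum from male mice at postnatal day 60, 3 labelled knockout for Slc39a14 (KO; animals 2, 4 and 6) and 3 labelled wild type (WT; animals 1, 3 and 5). Slc39a14 encodes ZIP14, a transporter of manganese and other metals, and the series presents the KO mouse as a model of dystonia-parkinsonism caused by manganese. Each library is 1 animal and genotype is the single factor in the labels. The sources used here do not give the part of the gene that is missing from the allele. Slc39a14 itself had 41.1, 39.9 and 46.0 CPM (TMM-normalized counts scaled to a common library size) in KO 2, 4 and 6, against 42.2, 41.2 and 43.9 CPM in WT 1, 3 and 5, so its level does not separate the genotypes and every direction below rests on the labels.

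Long intergenic RNAs are transcripts from between protein-coding genes that are not known to be translated, and most are spliced, capped and polyadenylated like messenger RNA. Some of those that are abundant in brain have well-studied roles, while for many members of the set no role is given here. Malat1, Neat1 and Miat (Gomafu) stay in the nucleus, where Neat1 is the scaffold of paraspeckles, Malat1 gathers at splicing speckles and Miat binds splicing factors in neurons. Meg3 and Mirg are made from the maternal copy of the imprinted Dlk1-Dio3 region. 1700020I14Rik is named Oip5os1 in RefSeq and is the mouse Cyrano RNA, which binds the miRNA miR-7 and leads to its decay. C230004F18Rik is named Cdr1os in RefSeq and is the locus around the circular RNA Cdr1as, which carries many miR-7 sites. 2900097C17Rik is named Norad in RefSeq and binds Pumilio proteins, repressors of messenger RNA. Other members are the precursors from which miRNAs are cut, among them miR-124 and miR-9 of neurons and neural progenitors.

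The sequences that tie these RNAs to miR-7 are shown first, because the pairing is what the roles of Cyrano and the Cdr1as locus rest on. The miRNA has its seed (bases 2 to 8) in capitals, and the RNA windows have the 7 bases GTCTTCC that pair with this seed in capitals. The mature miRNA is from RefSeq (GRCm38.p6, chr7:78888295-78888317, plus strand), and the windows are from GENCODE M21 transcripts on the plus strand of GRCm38.
miR-7a-5p: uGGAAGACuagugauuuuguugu
1700020I14Rik chr2:119602136-119602161: aacaacaaaatcaccaatGTCTTCCa
1700020I14Rik chr2:119599946-119599971: tcaggttttttttttaatGTCTTCCa
C230004F18Rik chrX:61183662-61183687: gtcttccacaaaattcagGTCTTCCa
C230004F18Rik chrX:61184010-61184035: gtcttccccaaaatccatGTCTTCCt
C230004F18Rik chrX:61185487-61185512: gtcttcccgaaaatcaatGTCTTCCt
In the first 1700020I14Rik window, 13 further bases in a row upstream of the site were also complementary to miR-7a-5p, and in the second the longest such run was 3 bases. The C230004F18Rik windows shown had runs of 7 bases, and 0 of the sites in this gene had a run of 8 or more. In the C230004F18Rik windows a further copy of the same 7 letters opens each line in lower case.

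The letters GTCTTCC were searched on the transcribed strand of the longest GENCODE M21 transcript of 5555 lincRNA genes. C230004F18Rik held 125 of them, the most of any lincRNA transcript, or 6.36 per kilobase, against 0.112 per kilobase over all lincRNA transcripts pooled. 1700020I14Rik held 2, and 23 of the 75 abundant genes (30.7%) held at least 1. Such a match is common in long transcripts: 11.4% of all lincRNA transcripts and 47.7% of the 153 with at least 4000 bases held one. The count in C230004F18Rik is over exons of the linear gene, and the circular Cdr1as RNA was not measured apart from it.

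Norad is shown by its Pumilio elements, TGTANATA with any base at N, searched on the transcribed strand. Its closest pair, chr2:156390519-156390541 on the minus strand of GRCm38, has both elements in capitals.
2900097C17Rik: tgcTGTATATAtTGTACATActg
2900097C17Rik held 11 such elements, the most of any lincRNA transcript, or 2.24 per kilobase against 0.125 per kilobase over all lincRNA transcripts pooled. Gm7292 held 9 and C230004F18Rik held 8, the next 2 counts in order. By elements per kilobase among lincRNA transcripts, 2900097C17Rik ranked 22nd and Gm7292 ranked 4th, at 3.56 per kilobase. Of the 75 abundant genes, 28 (37.3%) held at least 1 element, beside 14.1% of all lincRNA transcripts and 43.1% of those with at least 4000 bases. The match is to letters only, and binding was not measured.

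**Figure D1:**
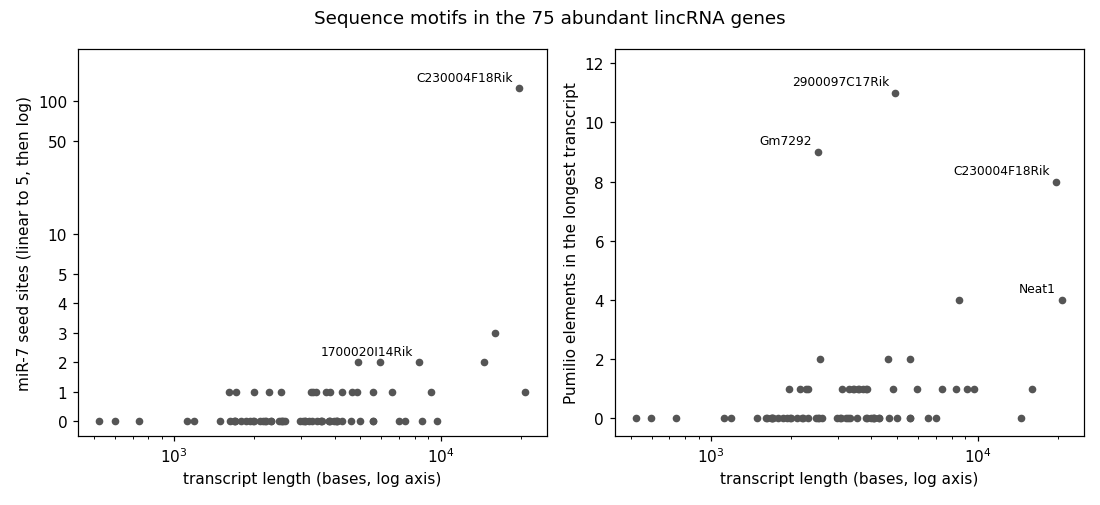
miR-7 seed matches (left, vertical axis linear to 5 and then logarithmic) and Pumilio elements (right) in the longest transcript of each of the 75 abundant lincRNA genes, against transcript length in bases on a log axis, 1 point per gene. C230004F18Rik stands alone at 125 miR-7 matches, and 2900097C17Rik (Norad) has the most Pumilio elements at 11.

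Of the 75 genes, 17 (22.7%) enclose an annotated miRNA gene on the same strand, 46 miRNA genes in all, beside 12 of the 414 other tested lincRNA genes (2.90%), whose median span is shorter (6192 bases, beside 10172 bases in the 75); the part of length in these shares was not tested. RefSeq (GRCm38.p6) lists 69 mature miRNAs for 14 of these hosts, with 61 distinct sequences. Mirg holds 26 of them and A230057D06Rik, which spans the miR-344 cluster, holds 14. The lines below group the host genes by shared seed, with the seed in capitals. miR-9-5p, a regulator of neural progenitors, has the same sequence in 3 hosts on 3 chromosomes, and miR-129-5p in 2 hosts.
miR-9-5p in Gm3764 chr3:88215613-88215635: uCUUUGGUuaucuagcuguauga
miR-9-5p in C130071C03Rik chr13:83738821-83738843: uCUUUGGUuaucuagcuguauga
miR-9-5p in Mir9-3hg chr7:79505279-79505301: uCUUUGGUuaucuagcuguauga
miR-129-5p in Gm3294 chr6:29022624-29022644: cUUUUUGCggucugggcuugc
miR-129-5p in Mir670hg chr2:94241419-94241439: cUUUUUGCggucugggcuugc
miR-344d-3p in A230057D06Rik chr7:61726256-61726277: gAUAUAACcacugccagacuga
miR-344e-3p in A230057D06Rik chr7:61735539-61735560: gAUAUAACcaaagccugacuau
miR-410-3p in Mirg chr12:109743764-109743784: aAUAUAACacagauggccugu
The last 3 share the seed AUAUAAC across A230057D06Rik and Mirg, which lie on chromosomes 7 and 12. Seeds found in a single host include those of let-7d-5p, miR-138-5p and miR-101a-3p, miRNAs with targets in neurons, and of miR-134-5p, which limits dendritic spine size in rat neurons.
let-7d-5p in 6720427I07Rik chr13:48536078-48536099: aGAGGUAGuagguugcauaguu
miR-138-5p in C78859 chr8:94324312-94324334: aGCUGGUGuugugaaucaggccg
miR-101a-3p in E130102H24Rik chr4:101346957-101346977: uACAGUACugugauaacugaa
miR-134-5p in Mirg chr12:109734145-109734166: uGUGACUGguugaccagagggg
Mir124a-1hg and Mir124-2hg enclose the genes of miR-124. Mature miRNAs were not measured in these libraries, so the host values below are levels of the host gene.

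The libraries held 13805997 to 15788135 counts. The 14 markers of cerebellum summed to 7522 ± 328 CPM (KO; SD, n = 3) and 7709 ± 146 CPM (WT; SD, n = 3), forebrain markers to 86.8 ± 9.86 CPM in KO and 91.0 ± 8.70 CPM in WT, and brainstem and Hox markers to 39.0 ± 5.29 CPM in KO and 40.1 ± 2.85 CPM in WT. Choroid plexus markers, from the epithelium that makes cerebrospinal fluid, summed to 656 to 1975 CPM in KO and 172 to 812 CPM in WT, with 15 of 15 fitted above 0, 13 of 15 at an unadjusted p under 0.05, a median log2 fold change of 1.38 and 0 called by edgeR. Interferon response markers summed to 263 to 348 CPM in KO and 155 to 163 CPM in WT (6 of 19 tested were called higher by edgeR, 18 of 19 had an unadjusted p under 0.05, and the median log2 fold change was 2.00). Microglia markers summed to 162 to 212 CPM in KO and 133 to 142 CPM in WT (0 of 14 called by edgeR, 7 of 14 at an unadjusted p under 0.05, median log2 fold change 0.48). The part of these markers in the values below was not tested. WT 5 and KO 4 stood apart from the other libraries in an earlier look at these data, which is not shown here. Of all genes tested, WT 5 was the highest library in 22.7% and the lowest in 21.4%. KO 4 was the highest in 20.3% and the lowest in 21.8%. Each other library was the highest, or the lowest, in 12.1% to 17.8%.

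The 75 genes together held 891342 counts, which is 1.02% of all counts and 88.5% of the counts of all lincRNA genes. Their share of a library was 1.03%, 1.02% and 0.999% in KO 2, 4 and 6, against 0.969%, 0.925% and 1.19% in WT 1, 3 and 5. The KO libraries lay inside the range of the WT libraries, and the highest and lowest shares were both WT. The KO mean was 1.01% ± 0.0153 (SD, n = 3), beside a WT mean of 1.03% ± 0.144 (SD, n = 3). Meg3 and Malat1 held 57.1% of the summed counts, the top 5 genes held 75.8%, and 35 genes had under 2000 counts. Without Meg3 and Malat1 the share was 0.437% in KO and 0.438% in WT.

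Per length of transcript the order of levels differs from that of counts. In FPKM (fragments scaled by gene length and by library size), the mean over 6 libraries was 301 for Malat1, 193 for Meg3, 127 for Mir124a-1hg, 99.4 for 2900097C17Rik (Norad) and 87.1 for 1700020I14Rik (Cyrano). A gap follows, since the 6th gene, Gm42504, had 28.01 FPKM, followed by Lhx1os at 25.5 FPKM and Gm3764 at 24.3 FPKM. Gm42504 has a gene length of 525 bases and 1347 summed counts, and is 58th of the 75 by counts. It overlaps Gm43398 on the opposite strand and also 9530056K15Rik and Gm20635, so its level is uncertain. Malat1 was 43rd and Meg3 84th of all genes by FPKM, whereas by counts Meg3 was 4th and Malat1 14th. The median of the 75 was 6.67 FPKM and the lowest 1.17 FPKM, beside a median of 5.99 FPKM in 14114 tested protein-coding genes and of 0.985 FPKM in the 414 other tested lincRNA genes. Of the 75 genes, 40 lay above the protein-coding median.

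The order among the top genes was read against the spread of the libraries. Malat1 had 277, 332 and 272 FPKM in KO 2, 4 and 6, against 255, 199 and 474 FPKM in WT 1, 3 and 5. The WT libraries alone spanned a wider range than the KO libraries, and their lowest reached the level of Meg3. Meg3 had 202, 162 and 200.5 FPKM in KO 2, 4 and 6, against 189, 193 and 209 FPKM in WT 1, 3 and 5, with the genotypes overlapping. Mir124a-1hg had 127, 121 and 131 FPKM in KO 2, 4 and 6, against 134, 130.1 and 122 FPKM in WT 1, 3 and 5, a narrow range below every Meg3 value. 2900097C17Rik had 93.1, 103 and 92.5 FPKM in KO 2, 4 and 6, against 104, 98.1 and 106 FPKM in WT 1, 3 and 5, and 1700020I14Rik had 80.5, 99.8 and 76.6 FPKM in KO 2, 4 and 6, against 81.1, 76.01 and 109 FPKM in WT 1, 3 and 5. The FPKM ranges of Malat1 and Meg3 overlapped, as did those of 2900097C17Rik and 1700020I14Rik, whereas those of Mir124a-1hg and 2900097C17Rik did not.

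**Figure D2:**
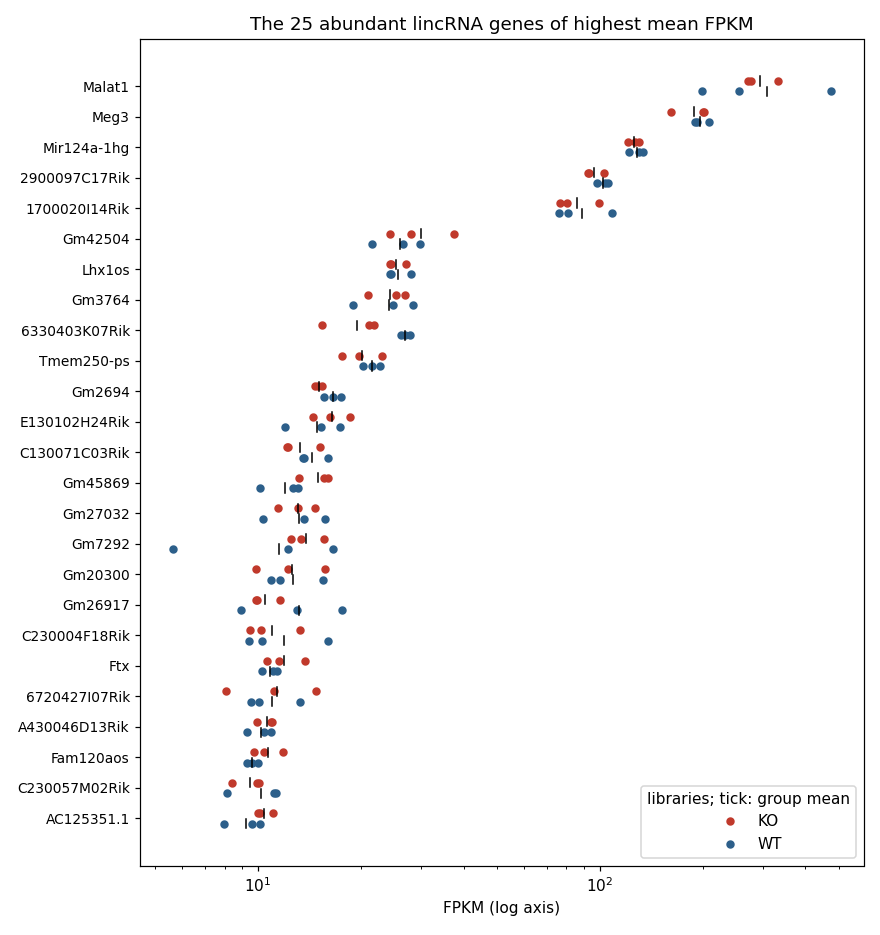
FPKM on a log axis of the 25 abundant lincRNA genes of highest mean FPKM, 1 point per library (KO above WT within each gene, n = 3 each), with a tick at each group mean. The top 5 genes lie between 76.0 and 474 FPKM, and the genotypes overlap in all of them.

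The cut at 1000 summed counts falls among genes of like level. Just inside it were C030037D09Rik with 1011, 2610035D17Rik with 1012 and Gm38102 with 1023 summed counts. Just outside it were 4932422M17Rik with 995, D230017M19Rik with 947 and Gm39465 with 941 summed counts. Known long noncoding RNAs outside the set were left out by biotype, as Rian (65469 summed counts), Peg13 (36002) and Firre (13588), or by level, as Jpx (883), Pantr1 (526) and Xist (20).

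No difference between KO and WT was called in any of the 75 genes. All 75 passed the filter on low counts, and 0 were called by edgeR's quasi-likelihood test at an adjusted p under 0.05 over 17142 genes, beside 0.0467% of all genes tested (8 genes, all higher in KO). The smallest adjusted p among them was 1.00 by edgeR. At an unadjusted p under 0.05 there were 2 of 75 (2.67%), beside 2.75% of all genes. DESeq2 called 0 of the 75, beside 0.263% of all genes (45 genes), and limma-voom called 0, beside 0.0467% (8 genes). At an unadjusted p under 0.05 DESeq2 had 2 of the 75, beside 2.18% of all genes, and limma-voom had 2, beside 2.92%. The authors' deposited table has 0 of the 75 genes under an adjusted p of 0.05, with a smallest value of 1.00.

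The intervals give the size of change that the data allow. The fitted log2 fold changes (KO minus WT) ran from -0.46 to 0.33, with 36 above 0 and 39 below, a median of -0.00773 beside -0.00356 over all genes tested, and 67 within 0.2 of 0. Standard errors were 0.09 to 0.30. The 95% interval lay inside a 1.5-fold change either way for 68 of the 75 genes and inside a 2-fold change for all 75. The 7 that reached 1.5-fold were Malat1, Gm26917, 6330403K07Rik, Gm7292, Gm45869, Gm42504 and Gm49335. The CPM values of KO and WT did not overlap in 4 genes (5.33%), beside 7.26% of all genes: Gm45869 was the 1 with KO above WT (background 3.58%), and 6330403K07Rik, Gm43597 and Gm17275 were the 3 with KO below WT (background 3.68%). In RNA from whole tissue, fewer cells of a type and less RNA per cell cannot be told apart.

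**Figure D3:**
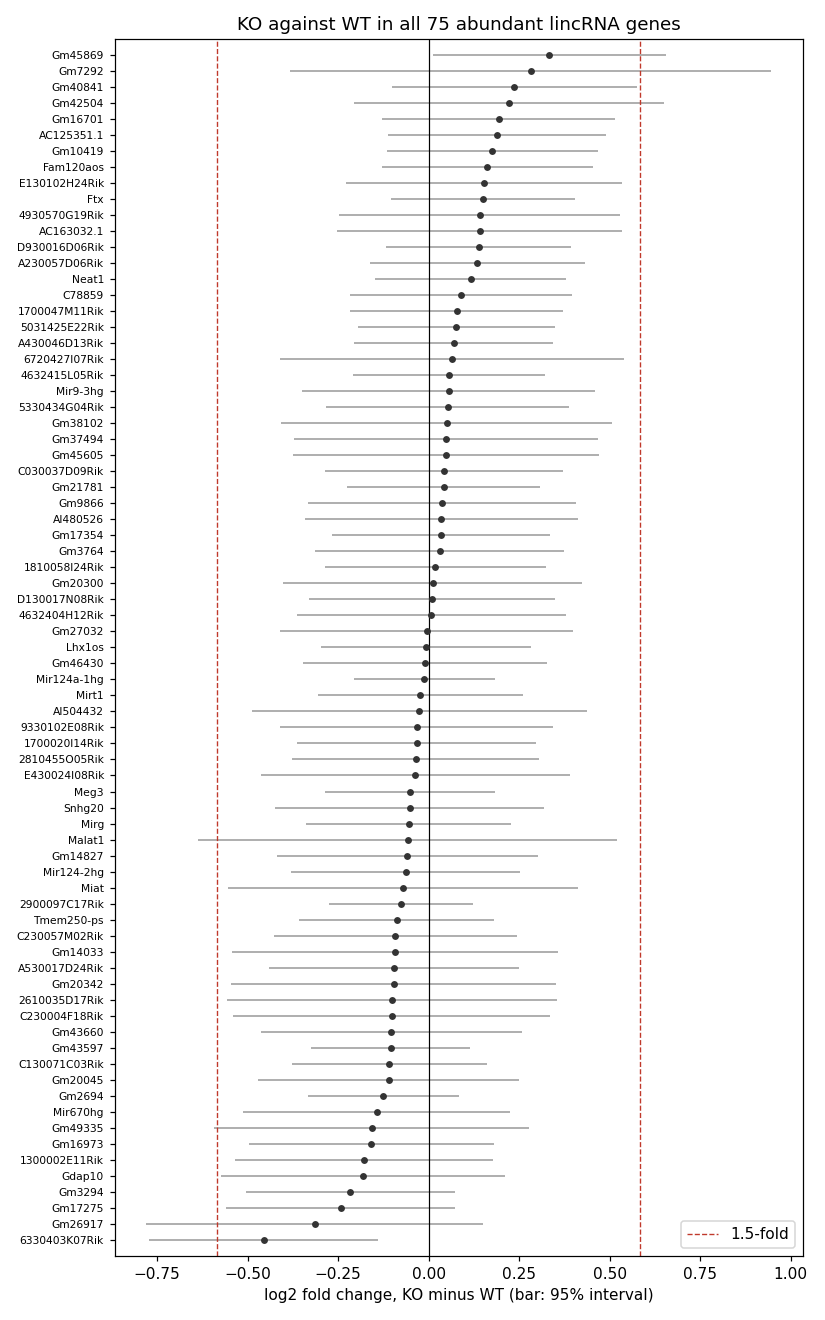
Log2 fold change (KO minus WT) of each of the 75 abundant lincRNA genes with its 95% interval as a bar, in order of size; dashed lines mark a 1.5-fold change. The points run from -0.46 to 0.33, and 68 of 75 bars lie between the dashed lines.

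The nuclear-body RNAs showed no called difference. Malat1 (chr19:5795690-5802672, minus strand) had 2043, 2439 and 1999.9 CPM in KO 2, 4 and 6, against 1867, 1451 and 3431 CPM in WT 1, 3 and 5. WT 5 was the highest library and WT 3 the lowest, so that the 3 KO libraries lay between WT libraries. Its log2 fold change was -0.06 (SE 0.26, 95% interval -0.64 to 0.52), and it turned to 0.38 without WT 5, 0.29 without WT 5 and KO 4, and 0.04 by limma-voom, with no call in any of these fits. Neat1, on the same chromosome and strand, had 86.5, 98.03 and 97.6 CPM in KO 2, 4 and 6, against 74.8, 98.2 and 87.1 CPM in WT 1, 3 and 5. WT 1 was the lowest library and WT 3 the highest, and the log2 fold change was 0.12 (-0.15 to 0.38), with the 95% interval in parentheses here and below. Miat had 51.8, 27.7 and 42.4 CPM in KO 2, 4 and 6, against 37.5, 38.4 and 52.3 CPM in WT 1, 3 and 5, with KO 4 the lowest and WT 5 the highest, and a log2 fold change of -0.07 (-0.55 to 0.41). Without WT 5 and KO 4 the log2 fold change of Miat was 0.32, without a call.

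The transcripts of proteins that these RNAs work with also showed no called difference. Protein levels were not measured. Of 14 genes of paraspeckle proteins, 0 were called in either direction and 0 had an unadjusted p under 0.05. Of these, 7 were fitted above 0 and 7 below, with a median log2 fold change of 0.00. The most abundant transcripts were Matr3 at -0.01 and Sfpq, whose protein is essential for paraspeckle formation, at -0.01. Of 16 genes of nuclear speckle and splicing proteins, 0 were called and 0 had an unadjusted p under 0.05, with a median of 0.01. Srrm2 and Son, the genes of core proteins of speckles, had log2 fold changes of 0.09 and 0.07.

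The imprinted RNAs of the Dlk1-Dio3 region lay close to 0. Meg3 (chr12:109541001-109571726, plus strand) had 3861, 3091 and 3818 CPM in KO 2, 4 and 6, against 3595, 3646 and 3916 CPM in WT 1, 3 and 5. KO 4 was the lowest library and the other 5 lay together, and edgeR fitted a log2 fold change of -0.05 (SE 0.11, 95% interval -0.29 to 0.18). Mirg, which follows Meg3 on the same strand, had 54.5, 49.2 and 65.8 CPM in KO 2, 4 and 6, against 62.4, 54.3 and 59.5 CPM in WT 1, 3 and 5. KO 4 was again the lowest, KO 6 was the highest, and the log2 fold change was -0.05 (-0.34 to 0.23). Without KO 4 the log2 fold changes were 0.05 for Meg3 and 0.04 for Mirg, neither of them called. Of 7 tested coding genes in and around the region, 0 were called and 0 had an unadjusted p under 0.05, with 1 above 0 and 6 below. The flanking imprinted genes expressed from the paternal copy, Dlk1 and Rtl1, had log2 fold changes of -0.36 (SE 0.24) and -0.18 (SE 0.19). These were the lowest of the 7, in genes with means of 5.15 and 5.20 CPM. The 2 most abundant, Dync1h1 and Ppp2r5c, had log2 fold changes of -0.06 (SE 0.11) and -0.10 (SE 0.09).

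The RNAs with miR-7 and Pumilio matches shown above did not differ by call either. 1700020I14Rik (Cyrano, chr2:119594297-119607502, plus strand) had 707, 873 and 670.0 CPM in KO 2, 4 and 6, against 707, 660.1 and 935 CPM in WT 1, 3 and 5. WT 5 was the highest and KO 4 the next, and the other libraries lay together. Its log2 fold change was -0.03 (-0.36 to 0.30). C230004F18Rik (Cdr1os, chrX:61116378-61292484, plus strand) had 259.7, 336 and 239 CPM in KO 2, 4 and 6, against 259.5, 237 and 400.0 CPM in WT 1, 3 and 5, with WT 5 highest and KO 4 next again and a log2 fold change of -0.10 (-0.54 to 0.34). The share of counts on mitochondrial genes was also highest in KO 4 (4.54%) and next in WT 5 (3.92%), beside 2.88% to 3.34% in the other KO and 3.00% to 3.35% in the other WT libraries, and its part in these values was not tested. Without WT 5 the log2 fold changes became 0.14 for 1700020I14Rik and 0.17 for C230004F18Rik, and without both WT 5 and KO 4 they were 0.01 and 0.01.

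2900097C17Rik (Norad, chr2:156388065-156392979, minus strand) was among the steadiest of the abundant genes. It had 483, 534 and 479 CPM in KO 2, 4 and 6, against 534, 504 and 540.1 CPM in WT 1, 3 and 5, with overlapping groups and a log2 fold change of -0.08 (-0.27 to 0.12). Gm7292 (chr6:117716342-117718868, plus strand) is a near copy of it: 2537 aligned bases were 99.2% identical to transcript positions 19 to 2553 of Norad, so reads of the shared part could be split between the loci and both counts are uncertain. Gm7292 had 35.7, 41.7 and 33.2 CPM in KO 2, 4 and 6, against 15.03, 32.5 and 43.4 CPM in WT 1, 3 and 5. WT 1 was far below the other 5 libraries, and the log2 fold change of 0.28 (-0.38 to 0.95) became -0.04 without WT 1 and 0.63 without WT 5. The summed CPM of both loci was 519, 576 and 512 in KO 2, 4 and 6, against 549, 537 and 583 in WT 1, 3 and 5. Gm7292 took 6.87%, 7.24% and 6.49% of this sum in KO 2, 4 and 6, against 2.74%, 6.05% and 7.44% in WT 1, 3 and 5. Of 9 genes of Pumilio and Polycomb PRC2 proteins, 0 were called and 0 had an unadjusted p under 0.05. Pum2, the gene of a protein that Norad binds, had a log2 fold change of -0.03.

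The 17 miRNA hosts were spread evenly about 0. Their log2 fold changes ran from -0.22 to 0.15 with a median of -0.01, 8 above 0 and 9 below, and 0 had an unadjusted p under 0.05. Mir124a-1hg, the host of the neuronal miRNA miR-124 and the member nearest to Slc39a14 on chromosome 14 (5.71 Mb away), had 646, 612 and 660.3 CPM in KO 2, 4 and 6, against 674, 653 and 608 CPM in WT 1, 3 and 5. The groups overlapped almost wholly, with a log2 fold change of -0.01 (-0.21 to 0.18). Mir124-2hg, the other miR-124 host in the set, had 43.7, 44.8 and 33.8 CPM in KO 2, 4 and 6, against 39.5, 39.6 and 48.7 CPM in WT 1, 3 and 5 and a log2 fold change of -0.06 (-0.38 to 0.25).

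The 3 hosts of miR-9 covered a wide range of levels. Per length, the mean over 6 libraries was 24.3 FPKM for Gm3764, 13.8 FPKM for C130071C03Rik and 5.05 FPKM for Mir9-3hg. Gm3764 had 156, 129 and 165 CPM in KO 2, 4 and 6, against 174, 151 and 115 CPM in WT 1, 3 and 5, with WT 1 highest and WT 5 lowest. C130071C03Rik had 73.2, 90.9 and 73.3 CPM in KO 2, 4 and 6, against 80.4, 80.97 and 94.5 CPM in WT 1, 3 and 5, with WT 5 highest. Their log2 fold changes were 0.03 (-0.31 to 0.37) and -0.11 (-0.38 to 0.16), and that of Mir9-3hg was 0.05 (-0.35 to 0.46). Without WT 5 those of Gm3764 and C130071C03Rik were -0.12 and -0.03, and without KO 4 they were 0.13 and -0.22. The hosts of miR-129, Gm3294 and Mir670hg, had the lowest log2 fold change of any miRNA host, -0.22 (-0.51 to 0.07), and -0.14 (-0.51 to 0.23). Gm3294 averaged 25.7 ± 2.24 CPM in KO libraries and 29.9 ± 3.24 CPM in WT libraries (SD, n = 3 each), and its groups overlapped between 27.5 and 27.6 CPM.

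Further hosts are given by their means. A230057D06Rik, which holds the miR-344 cluster, averaged 99.4 ± 15.96 CPM in KO libraries and 90.6 ± 9.35 CPM in WT libraries (SD, n = 3 each). E130102H24Rik, the host of miR-101a, averaged 15.9 ± 1.97 CPM in KO libraries and 14.3 ± 2.51 CPM in WT libraries. 6720427I07Rik, the host of let-7d, averaged 27.6 ± 8.15 CPM in KO libraries and 26.4 ± 4.65 CPM in WT libraries. The log2 fold changes of these 3 were 0.13 (-0.16 to 0.43), 0.15 (-0.23 to 0.53) and 0.06 (-0.41 to 0.54), with overlapping groups in each. C78859, the host of miR-138, averaged 24.3 ± 3.60 CPM in KO libraries and 22.9 ± 0.366 CPM in WT libraries, and Snhg20, named for a snoRNA host family and enclosing Mir6516, averaged 20.8 ± 2.84 CPM in KO libraries and 21.6 ± 3.80 CPM in WT libraries. Their log2 fold changes were 0.09 (-0.22 to 0.40) and -0.05 (-0.42 to 0.32).

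Of the 4 members on the X chromosome, Ftx belongs to the X-inactivation centre, where it is an activator of Xist. Ftx (chrX:103560907-103623754, minus strand), which encloses Mir374b and Mir421, had 92.7, 109.9 and 84.9 CPM in KO 2, 4 and 6, against 88.2, 81.5 and 89.5 CPM in WT 1, 3 and 5. KO 4 was the highest library and the groups overlapped, with a log2 fold change of 0.15 (-0.10 to 0.40). It was 0.04 without KO 4 and 0.07 without WT 5 and KO 4. 5330434G04Rik, the host of miR-325, and Gm14827 had log2 fold changes of 0.05 (-0.28 to 0.39) and -0.06 (-0.42 to 0.30), and C230004F18Rik is given above.

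Lhx1os (chr11:84525660-84535831, plus strand) starts 125 bases from Lhx1, a transcription factor of Purkinje cell development, and runs the other way. It had 17.9, 18.1 and 19.9 CPM in KO 2, 4 and 6, against 17.9, 20.5 and 17.7 CPM in WT 1, 3 and 5, with a log2 fold change of -0.01 (-0.30 to 0.28), beside -0.08 (SE 0.11) for Lhx1. Gm2694 (chr8:87460469-87525554, plus strand) lies opposite Cbln1, the granule cell gene whose product joins parallel fibres to Purkinje cells. Gm2694 had 93.7, 91.05 and 89.1 CPM in KO 2, 4 and 6, against 106, 99.9 and 92.9 CPM in WT 1, 3 and 5. WT 1 and WT 3 lay above every KO library and WT 5 lay among them, and the log2 fold change was -0.12 (-0.33 to 0.08). No source used here gives the strand setting of the libraries, so reads of Gm2694 and Cbln1 cannot be told apart where they overlap. Cbln1 had 604, 586 and 668 CPM in KO 2, 4 and 6, against 715, 740.1 and 569 CPM in WT 1, 3 and 5. WT 1 and WT 3 lay above every KO library there too, and its log2 fold change was -0.12 (SE 0.12). Gdap10 and Mirt1 had log2 fold changes of -0.18 (-0.57 to 0.21) and -0.02 (-0.30 to 0.26).

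Gm26917 (chr17:39843013-39846341, plus strand) had the second lowest log2 fold change, -0.31 (-0.78 to 0.15). It had 35.04, 34.6 and 40.8 CPM in KO 2, 4 and 6, against 45.6, 31.1 and 60.9 CPM in WT 1, 3 and 5. WT 5 was the highest and WT 3 the lowest, so the KO libraries lay inside the WT range. Without WT 5 the log2 fold change was -0.05, without WT 5 and KO 4 it was -0.01, and without WT 3 it was -0.53. The gene lies beside the ribosomal RNA gene CT010467.1 on chromosome 17. The share of counts on CT010467.1 was 0.0611% to 0.0730% in KO and 0.0414% to 0.142% in WT, with WT 5 the highest and WT 3 the lowest there as well, and its part in the Gm26917 values was not tested.

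The gene with the smallest unadjusted p was 6330403K07Rik (chr11:71031941-71033513, minus strand), which RefSeq lists as protein-coding. It had 33.4, 24.3 and 34.5 CPM in KO 2, 4 and 6, against 42.3, 40.9 and 43.2 CPM in WT 1, 3 and 5. Every KO library lay below every WT library, KO 4 was the lowest, and the WT libraries lay close together. Its log2 fold change was -0.46 (SE 0.14, 95% interval -0.77 to -0.14), with an unadjusted p of 0.00953 and an adjusted p of 1.00 by edgeR. Without KO 4 it was -0.31. Its nearest tested coding genes on each side were Mis12, 4570 bases away, and Wscd1, 716407 bases away. They had log2 fold changes of -0.28 (SE 0.15) and 0.16 (SE 0.12).

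Gm45869 (chr6:126549869-126556169, minus strand) was at the other end. It overlaps Gm33320 on the same strand, so its counts are uncertain. It had 28.2, 23.7 and 28.8 CPM in KO 2, 4 and 6, against 23.5, 22.5 and 17.97 CPM in WT 1, 3 and 5. All 3 KO libraries were above the 3 WT libraries, though KO 4 and WT 1 were close, and WT 5 was the lowest. A log2 fold change of 0.33 (SE 0.14, 95% interval 0.01 to 0.66) was fitted, with an unadjusted p of 0.0440 and an adjusted p of 1.00 by edgeR. Without WT 5 it was 0.23. Its nearest tested coding genes on each side are Ntf3, a neurotrophin, and Kcna1, a potassium channel of cerebellar basket cells. They lie 382959 and 84228 bases away, with log2 fold changes of -0.03 (SE 0.24) and -0.21 (SE 0.11).

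In the other genes whose groups did not overlap the gap was small. Gm17275 had 11.4, 11.1 and 10.4 CPM in KO 2, 4 and 6, against 12.2, 13.5 and 13.3 CPM in WT 1, 3 and 5, with a log2 fold change of -0.24 (-0.56 to 0.07). It overlaps H3f3a, a gene for the replacement form of histone H3, on the opposite strand, so its counts are uncertain. Gm43597 had 41.1, 40.7 and 41.6 CPM in KO 2, 4 and 6, against 43.99, 43.2 and 45.5 CPM in WT 1, 3 and 5, with a log2 fold change of -0.10 (-0.32 to 0.11). The positive end also held Gm40841 at 0.24 (-0.10 to 0.57), Gm42504 at 0.22 (-0.21 to 0.65), Gm16701 at 0.19 (-0.13 to 0.52) and AC125351.1 at 0.19 (-0.11 to 0.49), all with overlapping groups. That of Gm42504 was 0.03 without KO 4, 0.11 without WT 1 and 0.35 without KO 6. The counts of Gm42504 are uncertain because it overlaps other genes. The negative end held Gm3294 and Gdap10, given above.

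The median abundant gene spanned 10172 bases of genome and had 4269 bases of exon, beside 6192 and 2054 bases in the other tested lincRNA genes. Raw counts rise with exon length, so a choice on summed counts favours long exons, and nothing is read from this difference. The longest transcript had a median of 2 exons in both sets, and a single exon in 20 of the 75 (26.7%), among them Malat1, Neat1, Norad, Mir124-2hg and C78859, beside 18.4% of the others. A match in RefSeq was found for 52 genes, of which 45 are listed as long noncoding, 1 as a transcribed pseudogene and 6 as protein-coding. The 6 are 6330403K07Rik, Tmem250-ps, 1810058I24Rik (Stmp1, a small mitochondrial protein), D930016D06Rik, Gm37494 and Gm46430, and apart from 6330403K07Rik their log2 fold changes ran from -0.09 to 0.14. Of the 75, 10 (13.3%) start head to head with a coding gene within 2000 bases, among them Lhx1os with Lhx1, Fam120aos with Fam120a and C030037D09Rik with Msi2. The share in other lincRNA genes was not computed, so nothing is read from this one.

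Counting is least certain where loci share sequence or position. Another listed gene with counts overlaps 26 of the 75, on the opposite strand for 20 of them, and 7 have a stretch of at least 300 bases that is at least 95% identical to a transcript of another locus. Apart from Gm7292, in which the copy covers the whole transcript, and Norad, in which it covers 51.6%, the shared stretches covered 7.60% to 27.8% of the member's transcript. Searched only among tested coding genes that do not overlap the member, the nearest on both sides gave 144 neighbours. Of these, 0 were called by edgeR and 3 (2.08%) had an unadjusted p under 0.05, beside 2.75% of all genes, and their median log2 fold change was -0.02.

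The widest spreads between libraries came from single WT libraries. The ratio of the highest to the lowest CPM over the 6 libraries had a median of 1.42, was under 1.5 in 47 genes and over 2 only in Malat1 (2.37) and Gm7292 (2.89). The coefficient of variation within a genotype had a median of 12.4% in KO and 12.9% in WT, and its extremes in WT were 46.4% for Malat1 and 47.3% for Gm7292. Neither the ratio nor this coefficient is given here for all genes tested, so no trait of the set is read from them. KO 4 was the highest library in 17 of the 75 genes (22.7%, beside 20.3% of all genes), and WT 5 in 25 (33.3%, beside 22.7%). KO 6 was the lowest in 17 (22.7%, beside 17.8%), and WT 1 in 18 (24%, beside 12.9%). Other shares lay under those of all genes. KO 4 was the lowest in 9 (12%, beside 21.8%), KO 2 in 5 (6.67%, beside 12.1%) and WT 5 in 15 (20%, beside 21.4%). KO 6 was the highest in 7 (9.33%, beside 17.6%).

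**Figure D4:**
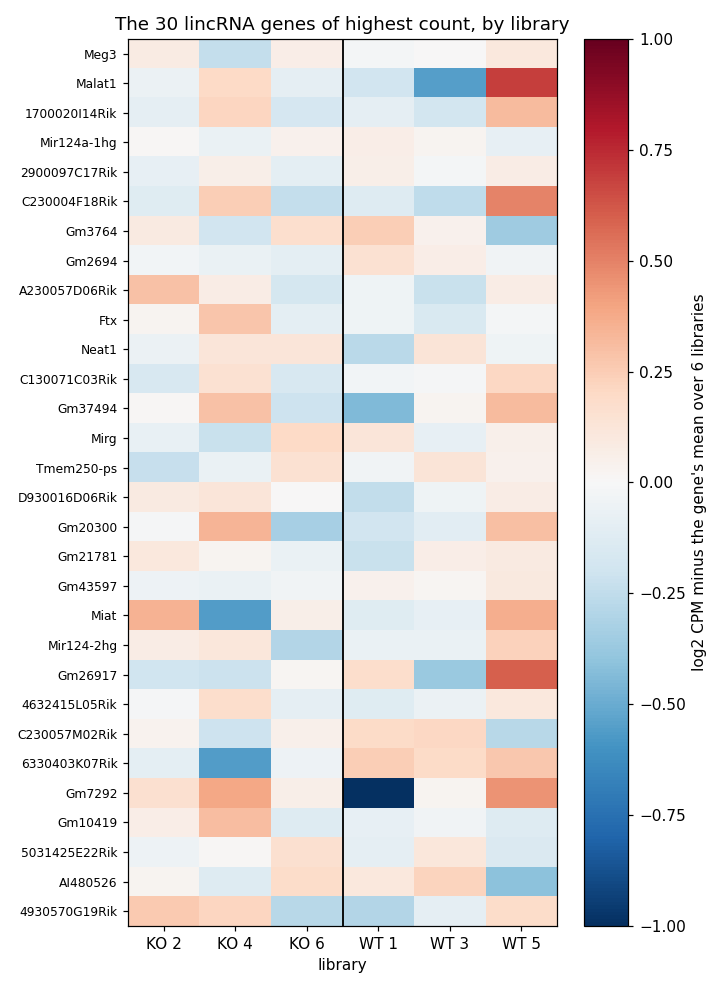
Log2 CPM of the 30 abundant lincRNA genes of highest count in each library, minus the gene's mean over the 6 libraries, with KO libraries left and WT libraries right of the line. Of the 30 genes, 6330403K07Rik and Gm43597 are lower in every KO library than in every WT library, and the lowest cell is Gm7292 in WT 1.

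The remaining 414 tested lincRNA genes, all with under 1000 summed counts, had 0 calls and 17 (4.11%) at an unadjusted p under 0.05, beside 2.67% of the 75. The standard deviation of the log2 fold change over genes was 0.13 in the 75 and 0.45 in the 414, whose counts are lower, and the difference was not tested. The smallest unadjusted p among them belonged to 9330104G04Rik, with 9, 15 and 34 counts in KO 2, 4 and 6, against 93, 81 and 42 counts in WT 1, 3 and 5. The groups did not overlap, and the log2 fold change was -1.90 with an adjusted p of 0.864 by edgeR. It was named after its values were seen.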

How the data were processed

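Total RNA of whole cerebellum was extracted with TRIZOL and libraries were made by a sequencing company, per the labels' protocols. Per the submitters' processing notes, the tools were HISAT2 and DESeq2 and the build was GRCm38.p6. No source used here gives the counting program or strand setting. The deposited count columns hold raw counts per gene and library. The deposited FPKM columns hold values scaled by gene length and library size. The authors' group means of normalized counts are a signal and were not used. The authors' own comparison is deposited as log2 fold changes with p-values.

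The count test was edgeR's (version 4.0.16, R 4.3.3), the quasi-likelihood test after TMM normalization, the filterByExpr filter by group (17142 genes left) and Benjamini-Hochberg adjustment over all of them, with calls at an adjusted p under 0.05. CPM values are TMM-normalized, log2 fold changes are KO minus WT, and intervals are 95%. Standard errors were derived from the quasi-likelihood F statistic, as the absolute log2 fold change divided by the square root of F. The intervals were built from these standard errors. 1 count was worth 0.0629 to 0.0733 CPM. DESeq2 1.42.0, limma-voom (3.58.1), other normalizations and filters, and left-out libraries were alternatives. Transcripts and exons came from GENCODE M21 and miRNAs and gene names from RefSeq tables of GRCm38.p6; 72 of 75 listed gene lengths equal the union of M21 exons. Near copies were found with BLAST+ 2.17.0. Python 3.11.15, pandas 2.3.3 and matplotlib 3.10.9 were used for tables and plots, and the fits were tested on simulated data.

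The members, gene lists, alternatives and the rule for named genes were chosen with earlier results of these data known. Named genes were members of the lists of long noncoding RNAs, the 12 highest by FPKM and by counts, the 8 with the smallest p, the 5 highest and 5 lowest fold changes, the 5 most variable within a group, members on the X chromosome, the member nearest Slc39a14, the genes next to the threshold, and the 2 most abundant genes of each partner list. Genes named outside this rule were chosen after their values were seen. Some genes of this rule are not reported here.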

Additional observations from a re-analysis of the deposited data

How the results depend on the processing

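No paired analysis was possible because KO (animals 2, 4 and 6) and WT (animals 1, 3 and 5) share no animal number. With DESeq2, limma-voom, DESeq2 size factors, library totals alone, no filter on low counts, robust shrinkage, each library left out, WT 5 and KO 4 left out together, a minimum of 500 (124 genes) or 2000 (40 genes) summed counts, or without genes that overlap another (49 left), 0 abundant genes were called by any of these. In the refits of all genes, 1 to 4 of the 75 had an unadjusted p under 0.05, beside 2.18% to 4.26% of all genes tested. There were 4 with no filter (beside 3.59% of all genes) and 4 without WT 5 and KO 4 (beside 4.26%). Over all genes tested, 8 were called with DESeq2 size factors, 9 with library totals alone, 9 with robust shrinkage, 8 with limma-voom, 45 with DESeq2, 142 of 32046 with no filter (smallest adjusted p among the abundant genes 0.248, by edgeR), 40 without WT 5 and KO 4, 28 without WT 5, 17 without KO 4, 3 without KO 6, 2 without KO 2, and 0 without WT 1 (473 at an unadjusted p under 0.05) or without WT 3 (442), by edgeR where no tool is named. Where 0 of all genes were called, the 0 among the abundant genes says nothing of them. Calls among neighbours and partner lists were 0 in the fits run for them. The median log2 fold change of the set stayed between -0.02 and 0.05.

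The KO mean share of library counts was 1.05% at a minimum of 500, 0.959% at 2000, 0.923% without overlapping genes, 1.05 per 100 protein-coding counts, and 0.437% without Malat1 and Meg3 (0.438% in WT). Leaving out 1 library gave 1.01% to 1.02% in KO and 0.947% to 1.08% in WT.

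Of 520 log2 fold changes of named genes under the alternatives, 49, in 20 genes, changed sign, and none of these genes was called; the cause was not tested. Library totals alone gave 0.0057 for Mir124a-1hg and 0.0099 for Lhx1os, and limma-voom gave 0.036 for Malat1. Without WT 5 and KO 4 together the values were 0.087 for Meg3, 0.29 for Malat1, 0.013 for 1700020I14Rik, 0.011 for C230004F18Rik, -0.017 for Gm3764, 0.048 for Mirg, 0.32 for Miat and -0.014 for 6720427I07Rik. Leaving out 1 library at a time turned the sign in 1700020I14Rik (-0.15 to 0.14), 2610035D17Rik (-0.26 to 0.044), 5330434G04Rik (-0.023 to 0.22), 6720427I07Rik (-0.17 to 0.26), C230004F18Rik (-0.26 to 0.17), Gm14827 (-0.18 to 0.028), Gm3764 (-0.12 to 0.17), Gm38102 (-0.12 to 0.22), Gm7292 (-0.039 to 0.63), Lhx1os (-0.056 to 0.071), Malat1 (-0.29 to 0.38), Meg3 (-0.11 to 0.050), Miat (-0.28 to 0.15), Mir124-2hg (-0.13 to 0.054), Mir124a-1hg (-0.051 to 0.022), Mir9-3hg (-0.089 to 0.20), Mirg (-0.18 to 0.039), Mirt1 (-0.075 to 0.060), Snhg20 (-0.19 to 0.046) and Tmem250-ps (-0.19 to 0.00023), and kept it in 2900097C17Rik (-0.12 to -0.048), 6330403K07Rik (-0.54 to -0.31), A230057D06Rik (0.013 to 0.25), AC125351.1 (0.091 to 0.27), C030037D09Rik (0.0048 to 0.11), C130071C03Rik (-0.22 to -0.026), E130102H24Rik (0.025 to 0.27), Ftx (0.044 to 0.23), Gdap10 (-0.28 to -0.056), Gm10419 (0.061 to 0.27), Gm16701 (0.16 to 0.26), Gm17275 (-0.29 to -0.21), Gm26917 (-0.53 to -0.054), Gm2694 (-0.17 to -0.078), Gm3294 (-0.27 to -0.12), Gm40841 (0.15 to 0.32), Gm42504 (0.033 to 0.35), Gm45869 (0.23 to 0.42), Mir670hg (-0.26 to -0.004) and Neat1 (0.021 to 0.22).

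With 3 animals a group, the 95% interval reached 1.5-fold for 7 genes. The unstated strand setting, near copies and overlapping genes limit single genes, and this is given beside only some of them. Gdap10, Gm42504, C130071C03Rik, Miat, Ftx, E130102H24Rik, Mirt1 and A230057D06Rik are among the 26 that overlap another listed gene with counts.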
